A study of Mus musculus with 4 samples.

Results

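The 7 genes described are Fos, Fosb, Fosl1, Fosl2, Jun, Junb and Jund, the FOS and JUN families whose products make up the transcription factor AP-1. They were chosen by symbol from 45777 genes in the deposited table, and all 7 were found. The rule used no values, but it was set with earlier results of these data known. RNA was sequenced from C2C12 myotubes, the multinucleate muscle cells formed in culture by a mouse myoblast line, here a single line kept in medium with 2% horse serum. The 4 groups, with 1 library each, were myotubes given clenbuterol (30 ng/ml), their control, myotubes under EPS and the control for EPS. EPS is read as electrical pulse stimulation, which the labels do not spell out, and neither the pulse settings nor the treatment times are given in the sources used here. The treatment field names clenbuterol at that dose for every library, both controls and the EPS library included, so the groups were taken from the titles. In the clenbuterol pair the names of the data match the titles. For the EPS pair the titles and the names of the data disagree: the record titled EPS holds data named for the control, and the other record holds data named for EPS. Both libraries therefore go by their titles, as titled EPS and as titled EPS control. Each difference between them turns round if the names of the data are right.

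AP-1 is a pair of leucine zipper proteins that grip DNA together. JUN proteins can pair with each other or with a FOS protein, whereas FOS proteins bind DNA stably only with a JUN partner. Fos, Fosb, Jun and Junb are immediate early genes, switched on within minutes by growth factors, calcium or cyclic AMP, and their mRNAs are short-lived. In muscle they are known to respond to contraction. Clenbuterol is an agonist of the β2-adrenergic receptor, which raises cyclic AMP and so activates the factor CREB.

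Total estimated counts per library lay between 32640884 and 35597074. All 10 myotube markers had a TPM (a level scaled for transcript length and library size) of at least 1 in every library. Of 6 markers of undifferentiated myoblasts, 5 also had a TPM of at least 1 in every library. Of 8 markers of immune, endothelial, adipose, epithelial and glial cells, Ptprc, Adipoq, Plin1 and Epcam were at 0 in all 4 libraries. The 8 together came to between 3.32 and 5.65 TPM, most of it Cd68, at 2.79 to 4.88 TPM. With 1 library per group there is no replicate check, no test and no p-value for any difference below, and intervals cover counting error only. In bulk RNA, fewer cells of a type and less RNA per cell cannot be told apart.

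All 7 genes were transcribed in every library, over a wide range of levels. Junb, the most abundant, had 508.8 TPM with clenbuterol, 311.7 TPM in the clenbuterol control, 242.5 TPM in the library titled EPS and 246.6 TPM in the library titled EPS control. It was the highest member in each library and ranked between 280 and 637 among all genes. Jund was next in every library, with TPM between 141.8 and 178. Jun and Fosl2 took the third and the fourth place, with Fosl2 ahead of Jun only in the clenbuterol library, at 146 against 114 TPM. Fos was the fifth in all 4 libraries. The order at the bottom depended on the pair of cultures: Fosl1 was lowest in the clenbuterol pair and Fosb in the EPS pair. No spread between cultures is known, so neighbours in this order whose levels lie close together, such as Jun and Fosl2, are not separated by it.

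**Figure D1:**
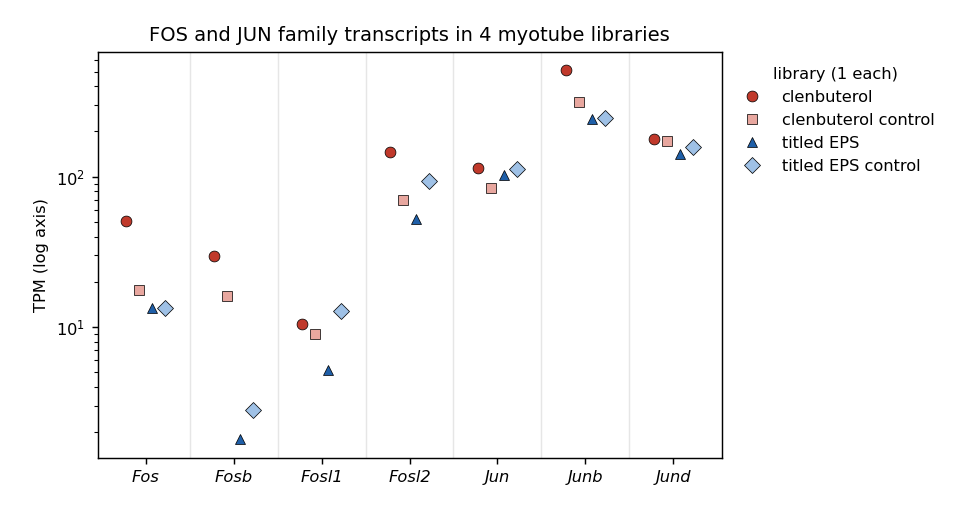
TPM (log axis) of each FOS and JUN family gene in the 4 libraries, 1 point per library. Fos, Fosb, Fosl2 and Junb have their highest point in the clenbuterol library. So do Jun and Jund, but only 1.021-fold and 1.035-fold above the next library. Fosb lies far lower in both libraries of the EPS pair than in both of the clenbuterol pair, and Jund stays between 141.8 and 178 TPM.

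The first comparison asked how the AP-1 genes stand in myotubes given clenbuterol. Fos and Fosl2 were at least 2-fold higher, Fosb and Junb followed at 1.87-fold and 1.66-fold in CPM (counts scaled for library size by TMM), and no member was lower. All 7 log2 ratios were above 0, with a median of 0.70 against −0.01 over all 13788 genes tested. The line for calling a gene higher or lower was a 2-fold ratio of TPM plus 1. By this rule 2 of 7 members were higher, where 1.00% of all genes tested were, and 0 of 7 were lower, where 0.515% were. The counting interval of the CPM ratio lay above 1 for 6 members and included 1 for Fosl1. The share of all genes with such an interval was not computed. At these counts the interval also excluded 1 for a ratio as small as 1.05, that of Jund. The clenbuterol library stood above the 3 others for 6 of 7 members, a place it held for 19.5% of the 14213 genes that reached 1 TPM in any library.

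Among the FOS genes, Fos itself differed most. Fos, the founding member, which carries a strong activation domain, lies on mm10 chromosome 12 at 85473890 to 85477274. Its level was 50.8 TPM with clenbuterol, against 17.7 TPM in the clenbuterol control, and it stood at 13.4 TPM in the library titled EPS and 13.3 TPM in the library titled EPS control. The clenbuterol library was thus alone at the top, and the other 3 lay close together. On 1535 and 543 counts the CPM ratio was 2.91 (95% counting interval 2.64 to 3.21), and the log2 ratio of TPM plus 1, 1.47, ranked 48 from the highest of 13788 genes.

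Fosl2, which encodes Fra-2, a FOS protein without the strong activation domain of Fos, lies on chromosome 5 at 32136472 to 32157840 and was the most abundant FOS gene in each library. It had 146 TPM with clenbuterol and 70.2 TPM in the control, from 12275 and 5989 counts. The CPM ratio was 2.11 (2.04 to 2.18) and the log2 ratio of TPM plus 1 was 1.05. The library titled EPS control, at 93.7 TPM, lay between the clenbuterol library and its control. Over the alternatives tried the log2 ratio of Fosl2 was lowest with a pseudocount of 5, at 1.006, just past the 2-fold line.

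Fosb, known in nervous tissue for a long-lived splice form, had 29.5 TPM with clenbuterol and 16.1 TPM in the control, from 1583 and 871 counts. The CPM ratio was 1.87 (1.72 to 2.03), just short of 2-fold. Fosl1, which encodes Fra-1, had 10.5 TPM with clenbuterol and 9.02 TPM in the control, from 258 and 224 counts. Its ratio of 1.19 (0.987 to 1.42) was not distinguishable from 1 at this depth. Fosl1 shares 2776 bases of its span with Ccdc85b on the opposite strand, at 8.42 TPM with clenbuterol and 8.69 TPM in the control, and whether the counting used strand is not given in the sources used here. No other member overlaps an annotated locus of the files.

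The JUN genes differed less. Junb, whose product is needed to keep up muscle mass in mice, had 13415 counts with clenbuterol against 8341 counts in its control, a CPM ratio of 1.66 (1.61 to 1.70). Its log2 ratio of TPM plus 1 was 0.70. Jun, the partner of Fos in the classical AP-1 dimer, had 114 TPM with clenbuterol, 84.5 TPM in the clenbuterol control, 102 TPM in the library titled EPS and 112 TPM in the library titled EPS control. The CPM ratio was 1.37 (1.31 to 1.43), but the level with clenbuterol lay only 1.02-fold above the next library, so the clenbuterol control was the low one of the 4. Jund, known as the constitutive member of the family, had 178 TPM with clenbuterol and 172 TPM in the control, a CPM ratio of 1.05 (1.02 to 1.09).

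**Figure D2:**
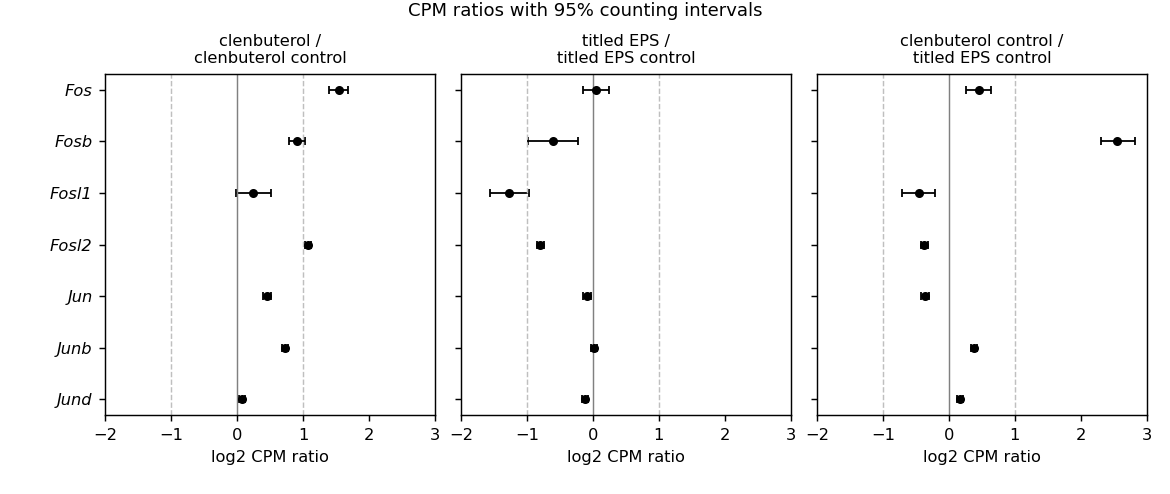
CPM ratio on a log2 axis for each member, with 95% counting intervals as bars, in the comparison of clenbuterol with its control (left), of the library titled EPS with the library titled EPS control (middle) and of the 2 controls (right). Dashed lines mark 2-fold. Fos and Fosl2 lie past the line on the left, Fosl1 in the middle, and Fosb on the right at a ratio of 5.89.

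The promoters of the 4 genes with the highest ratios are printed below. Cyclic AMP can act on genes through short CREB sites near the start of transcription. Whether CREB acted on these genes here was not tested. The RefSeq table of GRCm38.p6 holds a window for 6 of the 7 genes, from 250 bases before to 50 bases after the annotated start, and Fosl1 has none there. The windows of Fos (chr12:85473640-85473939, plus strand), Fosb (chr7:19309996-19310295, minus strand), Junb (chr8:84978699-84978998, minus strand) and Fosl2 (chr5:32136222-32136521, plus strand) read 5′ to 3′ as follows, with capitals marking each TGACG, the core of the cyclic AMP response element.
Fos: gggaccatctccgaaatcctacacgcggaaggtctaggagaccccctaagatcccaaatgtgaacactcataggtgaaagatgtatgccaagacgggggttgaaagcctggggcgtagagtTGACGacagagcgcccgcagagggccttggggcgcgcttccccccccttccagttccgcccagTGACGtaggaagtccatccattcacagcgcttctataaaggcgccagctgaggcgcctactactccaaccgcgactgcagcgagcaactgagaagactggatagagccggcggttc
Fosb: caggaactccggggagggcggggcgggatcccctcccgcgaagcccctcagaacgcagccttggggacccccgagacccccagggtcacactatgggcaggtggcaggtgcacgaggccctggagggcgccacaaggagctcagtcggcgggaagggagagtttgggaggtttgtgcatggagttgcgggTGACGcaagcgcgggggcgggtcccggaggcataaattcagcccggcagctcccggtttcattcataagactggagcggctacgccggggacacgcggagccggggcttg
Junb: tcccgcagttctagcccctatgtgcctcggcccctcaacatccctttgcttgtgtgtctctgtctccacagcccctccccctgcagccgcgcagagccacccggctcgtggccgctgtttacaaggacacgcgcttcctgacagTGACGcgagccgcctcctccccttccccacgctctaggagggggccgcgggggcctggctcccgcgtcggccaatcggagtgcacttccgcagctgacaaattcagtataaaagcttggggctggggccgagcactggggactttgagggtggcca
Fosl2: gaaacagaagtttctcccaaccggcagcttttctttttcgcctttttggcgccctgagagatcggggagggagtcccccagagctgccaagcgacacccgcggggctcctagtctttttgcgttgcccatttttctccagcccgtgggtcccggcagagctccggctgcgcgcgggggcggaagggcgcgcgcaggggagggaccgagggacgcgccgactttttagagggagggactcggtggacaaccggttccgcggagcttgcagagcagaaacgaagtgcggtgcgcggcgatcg

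Fos held TGACG at 129 and at 66 bases before its start, Fosb at 60 and Junb at 106. Fosl2 held none, nor did Jun or Jund. Jund had 1 window, set at the outer start of a locus with 2 listed transcripts, so any other start of Jund was not searched. Searched on both strands, TGACG occurred in 20.8% of the 32851 windows of that table. Jun, unlike the others, held the longer motif TGACNTCA, at 45 bases before its start, which occurred in 8.83% of windows. No member window held TGANTCA, an AP-1 motif (7.81% of windows), or a CArG box, a motif of the serum response factor (1.63%). Sequence outside the windows was not searched, so a gene without a motif here may hold it further away. TATAAA stood 33 bases before the start of Fos and at the annotated start of Junb, and in 13.6% of all windows. TGACG is part of TGACNTCA where N is G, and each match is a string of letters, not a measured site.

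Because these levels are per length, the members can be added to a sum for each family. The summed TPM of the 7 genes was 1038 with clenbuterol and 681 in its control, a ratio of 1.52. FOS genes came to 236.9 TPM with clenbuterol against 113 TPM in the control, a ratio of 2.10, and JUN genes to 801 TPM against 568 TPM, a ratio of 1.41. Of the gain of 356.8 TPM, Junb held 55.2% and Fosl2 21.3%, so that most of it came from genes with moderate ratios and high levels. The FOS share of the sum was 22.8% with clenbuterol, against 16.6% in the control. JUN transcripts outnumbered FOS transcripts in each library, by 3.38 to 1 with clenbuterol, 5.03 to 1 in its control, 6.69 to 1 in the library titled EPS and 4.21 to 1 in the library titled EPS control. Transcript sums do not measure the proteins that pair.

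**Figure D3:**
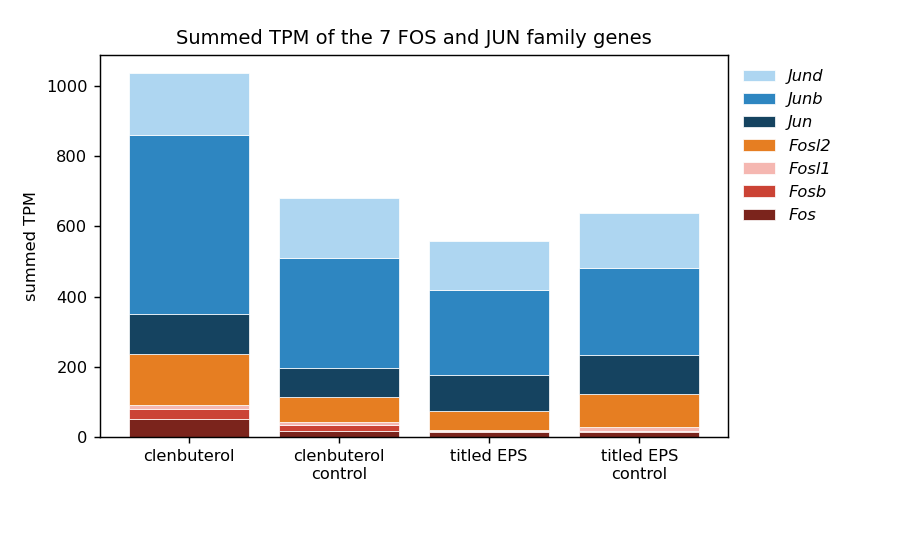
Summed TPM of the 7 genes in each library, stacked by gene, FOS family below and JUN family above. Junb is the largest part of each bar, between 38.6% and 49.0%, and the clenbuterol bar reaches 1038 TPM while the other 3 lie between 559 and 681 TPM.

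The second comparison concerned EPS, and in it Fosl1 and Fosl2 were the genes apart. Fosl1 had 5.17 TPM in the library titled EPS, against 12.8 TPM in the library titled EPS control, on 138 and 300 counts. The CPM ratio was 0.415 (0.337 to 0.510), which is 2.41-fold lower by title. Its antisense neighbour Ccdc85b was also lower there, at 9.5 TPM in the library titled EPS and 13.9 TPM in the library titled EPS control. Fosl2 had 52.4 TPM in the library titled EPS and 93.7 TPM in the library titled EPS control, 1.74-fold lower (1.68 to 1.81). The clenbuterol control, at 9.02 TPM for Fosl1 and 70.2 TPM for Fosl2, lay between the 2 libraries of the EPS pair for both genes.

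Fos was nearly equal within this pair, at 441 counts by the title EPS, against 386 counts by the title EPS control, with a CPM ratio of 1.03 (0.897 to 1.18). Junb was nearly equal too, with a ratio whose interval ran from 0.975 to 1.04. Jun and Jund lay slightly below 1, at 0.936 (0.9002 to 0.974) and 0.920 (0.888 to 0.953). Fosb, the lowest member in this pair, had 1.80 TPM in the library titled EPS against 2.81 TPM in the library titled EPS control, from 105 and 144 counts, a ratio of 0.658 (0.507 to 0.852).

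By the 2-fold rule 1 of 7 members was lower by title, where 1.14% of 13828 genes tested were, and 0 of 7 were higher, where 0.868% were. Fosl1 was no longer 2-fold lower in FPKM or with a pseudocount of 5. The median log2 ratio of the members was −0.16, against −0.03 over all genes tested. The library titled EPS was the lowest of the 4 for Fosb, Fosl1, Fosl2, Junb and Jund, 5 of 7 members, and it was the lowest for 26.7% of all genes. In CPM it was the lowest for 4, without Junb. The FOS sum was 72.8 TPM in the library titled EPS and 122.6 TPM in the library titled EPS control, with Fosl2 holding 82.8% of the gap, and the JUN sum was 486 TPM against 517 TPM. The summed level of the 10 myotube markers moved the same way, at 11640 TPM in the library titled EPS and 16060 TPM in the library titled EPS control, with 10 of 10 markers lower by title. In the clenbuterol pair it was 18230 TPM with clenbuterol and 17610 TPM in the control. The 6 markers of undifferentiated myoblasts went the other way in the EPS pair, at 182.4 TPM in sum in the library titled EPS and 149.3 TPM in the library titled EPS control, with 5 of 6 higher by title. Their sum was 292.2 TPM with clenbuterol and 212.2 TPM in the control, with 4 of 6 higher. Id3, at 115.9 TPM with clenbuterol and 35.9 TPM in the control, made up nearly all of that gap. The part of these shifts in the values of the members was not tested.

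The 2 controls show how far libraries lie apart where neither title names a treatment. Fosb had 16.1 TPM in the clenbuterol control and 2.81 TPM in the library titled EPS control, from 871 and 144 counts, a CPM ratio of 5.89 (4.93 to 7.08). Its log2 ratio of TPM plus 1, 2.16, ranked 5 from the highest of 13880 genes. This gap between controls was wider than the 1.87-fold difference with clenbuterol. Both libraries of the clenbuterol pair were at least 2-fold above both libraries of the EPS pair in Fosb, which held for 0.204% of genes.

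For the other 6 members the controls lay closer together. Fos was 1.37-fold higher in the clenbuterol control than in the library titled EPS control (1.20 to 1.57), and Junb 1.30-fold higher (1.26 to 1.35). Jun was 0.779 times the level (0.747 to 0.812), Fosl2 0.773 times (0.747 to 0.800) and Fosl1 0.727 times (0.609 to 0.867). Jund stood at 1.12 (1.08 to 1.16). By the 2-fold rule Fosb alone was higher, 1 of 7, where 1.30% of genes tested were, and 0 of 7 were lower, where 1.85% were. The difference with clenbuterol was thus wider than this gap for Fos, Fosl2, Junb and slightly for Jun, and narrower for Fosb, Fosl1 and Jund. If the data names are right, the EPS control is the library titled EPS, and the ratios of the clenbuterol control to it were 8.95 for Fosb (7.30 to 11.1), 1.75 for Fosl1 (1.41 to 2.18), 1.35 for Fosl2 (1.30 to 1.40) and 1.22 for Jund (1.18 to 1.26). Fosl1 and Fosl2 then lay above 1 in place of below it. Fos was then at 1.33, Junb at 1.29 and Jun at 0.832, and Fosb was again the 1 member past 2-fold. Culture, time and handling of the pairs cannot be told apart.

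Short-lived mRNAs of this kind often carry AU-rich elements in the 3′ untranslated region, bound by decay factors such as the product of Zfp36. In the longest GENCODE M21 3′ untranslated region of each gene, the heptamer TATTTAT, searched on the sense strand, occurred 3 times in Fosl2, 2 times in Fos and 1 time in each of Fosb, Fosl1, Jun and Jund, and not in Junb. It occurred in 27.5% of 20987 protein-coding genes and at least 3 times in 4.12%. The regions differ in length, from 485 bases in Junb to 4653 in Fosl2. A site is shown for each of the 2 genes past 2-fold with clenbuterol, Fos at chr12:85477114-85477143 and Fosl2 at chr5:32156201-32156230 of GRCm38, both on the plus strand and with the heptamer in capitals.
Fos: TATTTATtaagatggattctcagatattta
Fosl2: gaggcacttttcTATTTATcctcttttaag

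Among 14 other leucine zipper genes whose products pair with FOS or JUN proteins, 9 reached a TPM of 1 in the clenbuterol pair. Of these 0 were 2-fold higher or lower, where 1.00% and 0.515% of all genes were, so that the count does not set them apart. The median log2 ratio was 0.03, against −0.01 over all genes tested. Maff, a small Maf gene, was highest at log2 0.78, with 60.5 TPM with clenbuterol and 34.9 TPM in the control, a CPM ratio of 1.76 (1.63 to 1.91). Atf3, a stress-induced gene, followed at log2 0.32. Maf (−0.15) and Atf7 (−0.09) were lowest. In the EPS pair 0 of 9 passed 2-fold, where 0.868% of all genes tested were higher by title and 1.14% lower. Jdp2 (0.17) and Atf3 (0.11) were highest by title there, and Maff (−0.59) and Mafa (−0.48) lowest. The median was −0.28, against −0.03 over all genes tested. Without the filter on low values the median of the list was 0.00. Maff had a CPM ratio of 0.667 by title there (0.618 to 0.720). Batf2, Batf3 and Nrl were at 0 in all 4 libraries.

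Genes that act on FOS and JUN include kinases, DNA-binding factors and decay proteins. Of 24 measured genes of kinases and factors upstream, 0 were 2-fold higher or lower in TPM plus 1 in either pair, a count near the share of all genes (0.515% to 1.14%). The medians were −0.02 with clenbuterol and −0.10 for the EPS pair. Crem, the cyclic AMP response modulator and itself inducible by cyclic AMP, was highest at log2 0.90, with 13.4 TPM with clenbuterol and 6.73 TPM in the control. Map2k1, the kinase MEK1, came next at 0.12. Srf, the serum response factor, was lowest at −0.44, with 34.7 TPM with clenbuterol and 47.3 TPM in the control, followed by Creb1 at −0.25. In the EPS pair Rps6ka1 (0.49) and Map2k6 (0.26) were highest by title, and Mkl2 (−0.48) and Rps6ka2 (−0.35) lowest. Rps6ka1, a kinase gene with 59 counts in the library titled EPS against 25 in the library titled EPS control, had a CPM ratio of 2.13 (1.31 to 3.55), past 2-fold on that scale. Among 14 genes of mRNA decay, protein turnover and cofactors, Zfp36l1 (0.48) and Zfp36 (0.32) were highest with clenbuterol and Ep300 (−0.09) and Zfp36l2 (−0.04) lowest. By title of the EPS pair, Cop1 (0.11) and Cops5 (0.11) were highest and Zfp36 (−0.65) and Hnrnpd (−0.19) lowest. The medians were 0.06 with clenbuterol and −0.07 for the EPS pair. In either pair 0 of 14 genes passed 2-fold, a count near the share of all genes (0.515% to 1.14%).

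Of 22 genes known as AP-1 targets 17 were measured. The list was drawn up with earlier results of these data known, so its counts are not independent of these data. With clenbuterol 6 of 17 were at least 2-fold higher, where 1.00% of all genes tested were, and 0 lower, where 0.515% were. In all, 12 of 17 lay above 0, with a median log2 ratio of 0.51 against −0.01 over all genes tested. When genes under 1 TPM were kept as well, the median of the list was 0.14. The list holds genes that cyclic AMP also induces through CREB, so it does not tell AP-1 from CREB. Ptgs2, the prostaglandin synthase gene, had 175.6 TPM with clenbuterol and 52.5 TPM in the control, 3.39-fold (3.26 to 3.52), and Plaur, the urokinase receptor gene, 37.2 TPM against 13.8 TPM, 2.67-fold (2.34 to 3.05). Il6 (log2 4.53), Areg (2.28), Dusp1 (1.65) and Vegfa (1.17) were the other 4. The ratio of Il6 rests on a low control, at 1.22 TPM from 21 counts, against 50.4 TPM from 820 counts with clenbuterol. Ccnd1, the cyclin D1 gene, was lowest at −0.23. Lif (0.80), Plau (0.59) and Il11 (0.51) lay between 0 and 2-fold. Timp1 (0.14), Cd44 (0.14), Ccl2 (0.04), Spp1 (−0.06), Hbegf (−0.07) and Tnc (−0.08) lay near 0. These 9 were added to the named genes after their values were seen.

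In the EPS pair 1 of 17 measured genes was 2-fold higher by title, where 0.868% of all genes tested were, and 1 lower, where 1.14% were. The median was −0.06, against −0.03 over all genes tested. Plau, the urokinase gene, was the higher one at log2 1.14, with 148 TPM in the library titled EPS and 66.7 TPM in the library titled EPS control, followed by Il11 at 0.61. Ccl2 was lower at −4.08, with 2.72 TPM in the library titled EPS and 62.1 TPM in the library titled EPS control, from 35 and 688 counts. Il6 stood at −0.67 on low levels, 1.76 TPM against 3.39 TPM, from 32 and 54 counts.

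**Figure D4:**
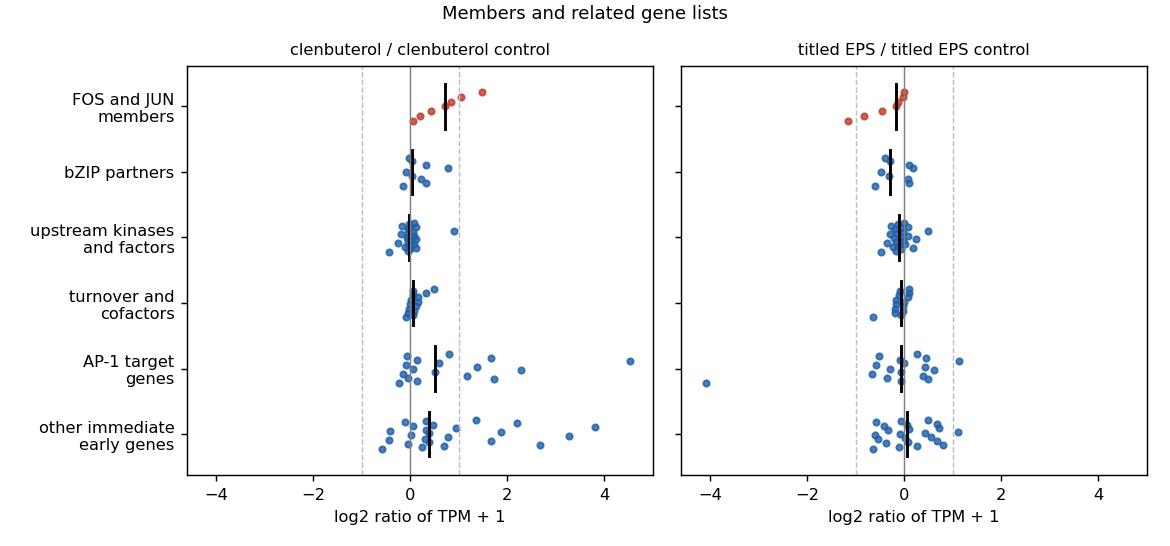
Log2 ratio of TPM plus 1 for the FOS and JUN members (red) and the genes of 5 related lists (blue), with black bars at list medians and dashed lines at 2-fold, for clenbuterol over its control (left) and titled EPS over titled EPS control (right). On the left the members, the AP-1 target genes and the other immediate early genes reach past 2-fold, while partners, upstream genes and turnover genes stay inside it.

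Immediate early genes outside AP-1 give the setting of these values. The list shares genes with those above, so they are not separate. Atf3 and Maff are also among the leucine zipper genes, Srf among the upstream genes and Zfp36 among the decay genes. Dusp1 is also an AP-1 target and counts as 2-fold higher with clenbuterol in both lists. With clenbuterol 7 of 24 measured genes were at least 2-fold higher, where 1.00% of all genes tested were, and 0 lower, where 0.515% were. The median of the list was 0.38, against −0.01 over all genes tested. This list too was drawn up with earlier results of these data known, so its counts are not independent of them. Nr4a3 (log2 3.81) and Nr4a2 (3.27) were highest. Klf10 (−0.58) and Srf (−0.44) were lowest. Egr1, Egr2 and Egr3, which like Fos answer to growth factor and calcium signals, were not among those at least 2-fold higher. The CPM ratio with clenbuterol was 1.33 for Egr2 (1.26 to 1.42), 0.974 for Egr3 (0.927 to 1.02) and 0.933 for Egr1, so they did not go one way. In the EPS pair 1 of 23 was higher by title, where 0.868% of all genes tested were, and 0 lower, where 1.14% were. The median was 0.06, against −0.03 over all genes tested. Ccn2 (1.10) and Egr3 (0.81) were highest, Zfp36 (−0.65) and Maff (−0.59) lowest. Egr1 stood at 108.8 TPM in the library titled EPS and 67.1 TPM in the library titled EPS control, a CPM ratio of 1.66 (1.59 to 1.74), and Egr2 and Egr3 had ratios of 1.75 and 1.85, where Fos, as given above, stood at 1.03. The Egr genes were added to the named genes after their values were seen.

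For the 5 members whose log2 level spanned at least 1, the genes closest in pattern over the 4 libraries were sought among 10367 others, by Euclidean distance between log2 levels centred on their mean. Nearest to Fos were Sox9 (distance 0.18), Csrnp1 (0.25) and Plk3 (0.25). Sox9, a cartilage regulator, had 85.8 TPM with clenbuterol and 32.6 TPM in the control, and lay between 24.9 and 27.6 TPM in the EPS pair. Fosl2 was closest to Foxc2 (0.14), Ankrd33b (0.26) and Bcl3 (0.26), and Junb to Dlc1 (0.10), Zkscan5 (0.14) and Socs2 (0.14). Fosl1 lay nearest to Hsd11b1 (0.06), which makes active glucocorticoid in the cell, then to Rn7s1 (0.13) and Rnf128 (0.13). Fosb had no close match: Errfi1, Has1 and Id3 came first, at distances of 1.10 to 1.13. With 4 libraries, such distances describe these libraries only.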

How the data were processed

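Poly(A) RNA of 4 C2C12 myotube cultures was sequenced from strand-specific libraries, per the labels' protocols. Reads were aligned with HISAT2 to mm10, per the submitters' processing notes. The program, annotation and strand setting behind the deposited values are not given in any source used here. The authors deposited estimated counts, FPKM and TPM per gene in a table of the series, and coverage (a signal), FPKM and TPM in 1 table per library. Between 1 and 3 genes per library differed by more than 0.001 TPM between both sources, and the 6 or 7 genes per library listed at 2 places were summed. Date-like symbols of 26 genes were restored by gene ID.

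Ratios are log2(TPM + 1), over genes reaching 1 TPM in either library compared. The pseudocount of 1 understates ratios of low genes. CPM used TMM-scaled totals (edgeR 4.0.16, R 4.3.3), with exact Clopper-Pearson 95% intervals (scipy 1.17.1, Python 3.11.15, numpy 2.4.6, pandas 2.3.3). The ratio and interval code was tested on simulated data. Counting of both mates of a pair, which no source used here settles, would make these intervals too narrow. DESeq2 1.42.0 gave alternative size factors. Plots used matplotlib 3.10.9. No test was possible with 1 library per group. The members, lists and naming rule were chosen with earlier results of these data known. Named were the members, the 2 highest and 2 lowest of each list per comparison, and the 3 nearest patterns among genes reaching 5 TPM. Others were chosen after their values were seen. Of the genes this rule names, 1 is not reported here.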

Additional observations from a re-analysis of the deposited data

How the results depend on the processing

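Alternatives were pseudocounts of 0.1 and 5, CPM scaled by TMM or by DESeq2 size factors, FPKM, no filter on low values, and the single-library tables. With clenbuterol, 2 members were at least 2-fold higher and 0 lower under all 7, and all 49 recomputed log2 ratios kept their sign. The filter does not enter a member's ratio, and every member passed it. The single-library tables held the same member values. In each comparison these 2 alternatives therefore repeat the main ratios and are no check on the members. Fos ranged from 1.30 to 1.52, Fosl2 from 1.006 to 1.07 and Fosb from 0.71 to 0.88. For the EPS pair, the count of members 2-fold lower by title was 1, and 0 with a pseudocount of 5 (Fosl1 at −0.81) or in FPKM. Of 49 ratios there, 46 kept their sign, and Junb ran from −0.02 to 0.04. With data names in place of titles, a choice added after the data were seen, 1 member was higher and 0 lower, and Fosl1 stood at 1.16. Fosb between the controls ranged from 1.43 to 2.48 and stayed the 1 member past 2-fold, in alternatives added likewise. By data names it stood at 2.61, and Fosl1 and Fosl2 stood at 0.70 and 0.42, against −0.46 and −0.41 by title. Over all genes, the 138 higher and 71 lower with clenbuterol became 41 to 256 and 2 to 194, the 120 higher and 158 lower by title 9 to 220 and 36 to 351, and the 180 higher and 257 lower between controls 36 to 381 and 73 to 485. The FOS share of summed levels, 13.01% to 22.8% over libraries in TPM, was 22.9% to 37.6% in CPM, which is not per length, and a pseudocount does not enter it. The AP-1 target median with clenbuterol was 0.21 with a pseudocount of 5 and 0.33 in FPKM. The library titled EPS was the lowest for 4 members in CPM, against 5 in TPM. No paired analysis was possible because each group has 1 library.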
